A study of Mus musculus with 12 samples.

Results

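The genes described here carry out or hold back the making of cholesterol. They were chosen by name: every row of the gene table whose symbol was Hmgcs1, Sqle, Fdft1, Idi1, Insig1, Lss, Cyp51 or Dhcr7. The names, and the gene lists used further on, were chosen with earlier results of these data known. Counts of them beside the share of all genes are therefore descriptions and not independent support. Of these 8 names, 7 had a row that was used, out of 23668 gene rows in all. Hmgcs1 was not analysed here. All 7 passed the filter on low values (at least 1 FPKM in at least 3 libraries), as did 12362 genes. FPKM counts sequenced fragments per length of transcript and size of library, so levels can be compared between genes.

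RNA was sequenced from mouse embryonic stem cells of strain SV129, grown on gelatin with leukemia inhibitory factor, which keeps such cells undifferentiated. WT cells had the wild type genotype. TKO cells were labelled RARalpha-/-, RARbeta-/- and RARgamma-/-, without the receptor genes Rara, Rarb and Rarg through which all-trans retinoic acid (ATRA), the acid form of vitamin A, acts on transcription. Each genotype received ethanol vehicle or 1 uM ATRA for 24 h, with 3 libraries in each of the 4 groups and 12 in all. Library columns carry the letters D, F and G. Nothing in the labels tells if these are separate cultures, or if TKO cells are 1 clone, and a p-value here stands for the spread among libraries alone.

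Cells build cholesterol from acetyl-CoA through mevalonate, isoprenoid diphosphates, squalene and lanosterol. When sterol in the endoplasmic reticulum is scarce, SCAP carries the transcription factors SREBP to the Golgi, where proteases release them, and they raise transcription of the enzymes of the pathway. When sterol is plentiful, INSIG proteins hold SCAP in the endoplasmic reticulum. The genes of the pathway are known to rise and fall together through this loop, and Insig1 is itself a target of SREBP.

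Across the series, the sum of FPKM per library was 584680 to 644470, and 11397 to 12193 genes reached 1 FPKM. The total depth per library is unknown, since FPKM divides it out. Rarb, whose transcript ATRA is known to induce, had a mean of 0.361 ± 0.137 FPKM (SD, n = 3) in WT cells given vehicle and 6.57 ± 1.25 in those given ATRA. In TKO cells it had 0.132 ± 0.0086 and 0.0516 ± 0.0318 FPKM. Rara and Rarg were still read in TKO cells, at 8.54 ± 0.852 and 14.9 ± 2.87 FPKM with vehicle. Which parts were deleted is not given in the sources, so these levels do not check the deletions. The summed level of 8 markers of pluripotent stem cells was 7062 to 8349 FPKM in WT vehicle, 4474 to 5504 in WT with ATRA, 6388 to 6833 in TKO vehicle and 6232 to 6574 in TKO with ATRA. None of those markers was under 1 FPKM in every library. Of 8 markers of feeder fibroblasts, 7 were under 1 FPKM in every library, and their sum was 9.09 to 13.8 FPKM in WT vehicle, 6.01 to 6.95 in WT with ATRA, 10.6 to 11.4 in TKO vehicle and 10.8 to 14.1 in TKO with ATRA. Nearly all of that sum was Thy1, which in WT cells went from 10.96 ± 2.33 to 5.72 ± 0.384 FPKM with ATRA, while Col1a1 went from 0.358 ± 0.045 to 0.759 ± 0.105 FPKM.

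The 7 members belong to 3 stretches of the pathway, and each has its place on GRCm38 from the GENCODE vM21 annotation. Idi1 (chromosome 13, 8885501 to 8892451) encodes the isomerase that makes both isoprenoid building blocks interchangeable. Fdft1 (chromosome 14, 63145150 to 63179578) encodes squalene synthase, the first step committed to sterols, and Sqle (chromosome 15, 59315077 to 59331192) the epoxidase that acts on squalene next. Lss (chromosome 10, 76531588 to 76557138) closes the ring to lanosterol. Cyp51 (chromosome 5, 4081145 to 4104746) encodes the demethylase of lanosterol, and Dhcr7 (chromosome 7, 143823145 to 143848410) a late reductase that yields cholesterol. Insig1 (chromosome 5, 28071363 to 28078662) encodes the brake described above. Exons of Fdft1, Idi1, Lss and Cyp51 overlap exons of a gene on the other strand, and with the strand setting of the counting not stated, reads of those neighbours cannot be told apart. No such overlap was found for Sqle, Insig1 and Dhcr7.

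Because the members rose and fell together between libraries, the promoters of 4 of them that the results turn on are printed, from RefSeq on GRCm38.p6. Each runs from 250 bases before to 50 bases after the annotated start, 5′ to 3′ along the gene's strand. Capitals mark CCAAT, the core that the factor NFY binds next to SREBP sites in many sterol genes, in either orientation (CCAAT or ATTGG), and CACGTG, an E-box form that SREBP can bind. Idi1 is at chr13:8885356-8885655 (plus strand), Insig1 at chr5:28071162-28071461 (plus), Lss at chr10:76531355-76531654 (plus) and Cyp51 at chr5:4104648-4104947 (minus).
Idi1: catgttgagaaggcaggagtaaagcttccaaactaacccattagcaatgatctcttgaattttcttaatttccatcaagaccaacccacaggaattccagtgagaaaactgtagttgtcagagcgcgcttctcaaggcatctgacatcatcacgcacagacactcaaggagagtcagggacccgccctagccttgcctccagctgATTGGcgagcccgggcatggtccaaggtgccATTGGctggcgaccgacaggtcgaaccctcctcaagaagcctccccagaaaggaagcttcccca
Insig1: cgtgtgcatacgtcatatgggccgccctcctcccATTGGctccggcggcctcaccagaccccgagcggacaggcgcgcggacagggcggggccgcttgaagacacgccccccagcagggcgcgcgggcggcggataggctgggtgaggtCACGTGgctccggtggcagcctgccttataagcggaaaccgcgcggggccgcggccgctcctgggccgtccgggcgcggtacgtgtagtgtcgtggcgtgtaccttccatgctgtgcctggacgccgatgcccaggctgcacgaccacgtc
Lss: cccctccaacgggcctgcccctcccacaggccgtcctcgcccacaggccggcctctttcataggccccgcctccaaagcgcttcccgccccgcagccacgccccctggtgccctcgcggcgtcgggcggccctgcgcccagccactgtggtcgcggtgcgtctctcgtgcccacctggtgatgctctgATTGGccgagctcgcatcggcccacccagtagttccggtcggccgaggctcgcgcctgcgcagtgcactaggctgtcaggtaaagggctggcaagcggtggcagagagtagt
Cyp51: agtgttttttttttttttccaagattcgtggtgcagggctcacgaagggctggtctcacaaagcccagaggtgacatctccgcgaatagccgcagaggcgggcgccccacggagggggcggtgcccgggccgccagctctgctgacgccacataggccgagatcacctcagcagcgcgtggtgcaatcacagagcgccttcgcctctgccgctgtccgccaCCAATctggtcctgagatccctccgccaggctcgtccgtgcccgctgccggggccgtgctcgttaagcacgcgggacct

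In Idi1 the matches to CCAAT lay 45 and 14 bases before the start, in Lss 62 and in Cyp51 29 bases before it. Insig1 held CCAAT 216 bases and CACGTG 101 bases before its start, and the matches did not overlap. Of the 8 members, 6 had a promoter entry and all 6 held CCAAT at 1 annotated start or more, against 37.4% of 32851 promoters of the same length. For Dhcr7 it was found at the third of 3 annotated starts. CACGTG was found in 2 of the 6 (Insig1 and the second start of Dhcr7), against 7.15% of promoters. Of the other enzymes of the pathway, 10 of the 11 with an entry held CCAAT. These counts are per gene, over 8 windows of the members and 12 of the other enzymes. The shares of promoters are per window, so the units differ, and a gene with several starts, such as Dhcr7, has more windows to match in. A single form of the SREBP site, TCACNCCAC on either strand, is in 1.24% of promoters. It was found in the window of Hmgcs1 and in none of the other members' windows. Variants of this form were not searched, so unmarked windows may still hold an SREBP site. A match or its absence in these windows says nothing about binding in these cells.

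All 7 members were well expressed in every group. Their group means lay between 23.3 FPKM (Cyp51, TKO vehicle) and 69.4 FPKM (Insig1, WT with ATRA). For 6 of them the order of the group means was WT with ATRA, WT vehicle, TKO with ATRA and TKO vehicle. Cyp51 had WT vehicle first, at 32.3 ± 5.59 FPKM against 32.2 ± 6.93 with ATRA. For every member the libraries of neighbouring groups in that order overlapped, and so did those of the first and the last group.

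Idi1, at the entry to the isoprenoid steps, read 38.2, 28.4 and 62.7 FPKM in the WT vehicle libraries D, F and G, and 62.6, 33.6 and 76.1 with ATRA. In TKO cells it read 25.3, 61.0 and 22.1 FPKM with vehicle, and 27.5, 64.7 and 28.4 with ATRA. Library F was thus the lowest of its group in WT and the highest in TKO, under both treatments, and the groups overlapped. Fdft1 read 36.8, 31.2 and 58.8 FPKM with vehicle and 62.3, 36.9 and 68.6 with ATRA in WT cells, and 24.2, 44.8 and 23.9, then 26.2, 44.6 and 30.3 in TKO cells. Sqle, the next enzyme, read 27.9, 24.7 and 47.5, then 43.7, 27.3 and 53.4 FPKM in WT, and 21.9, 46.6 and 21.2, then 22.7, 46.6 and 26.1 in TKO. Both repeated the order of letters seen for Idi1, and TKO library F lay inside the range of the WT libraries for all 3 genes.

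Lss read 31.8, 19.5 and 50.3 FPKM in WT vehicle, and ATRA went with 62.7, 27.8 and 64.0. Its TKO libraries lay closer together, at 22.7, 29.6 and 20.1 FPKM with vehicle and 21.8, 29.98 and 23.9 with ATRA. WT library F with ATRA fell inside the TKO range, while D and G were above every TKO library. Dhcr7, a few steps further on, read 43.7, 18.5 and 58.9 FPKM with vehicle and 73.3, 30.8 and 66.2 with ATRA in WT cells. In TKO cells it read 24.1, 32.6 and 19.6 FPKM with vehicle and 27.3, 32.9 and 29.1 with ATRA. Its WT vehicle library F was the lowest of all 12. Cyp51 spread least among the WT libraries: 34.1, 26.1 and 36.8 FPKM with vehicle and 39.5, 25.7 and 31.4 with ATRA. Its TKO libraries read 21.8, 28.5 and 19.7 FPKM with vehicle and 22.4, 27.0 and 22.7 with ATRA, so that F was again highest there.

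Insig1, the regulator, was the most abundant of the 7 in WT cells by group mean. It read 48.8, 38.0 and 79.9 FPKM in WT vehicle and 89.0, 47.5 and 71.7 with ATRA. The TKO libraries read 25.9, 51.3 and 22.2 FPKM with vehicle and 27.6, 51.0 and 36.9 with ATRA. It was thus highest in WT library D with ATRA and lowest in TKO library G with vehicle. Only TKO library F reached the WT vehicle range, and the TKO D and G libraries lay below all 6 WT libraries.

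**Figure D1:**
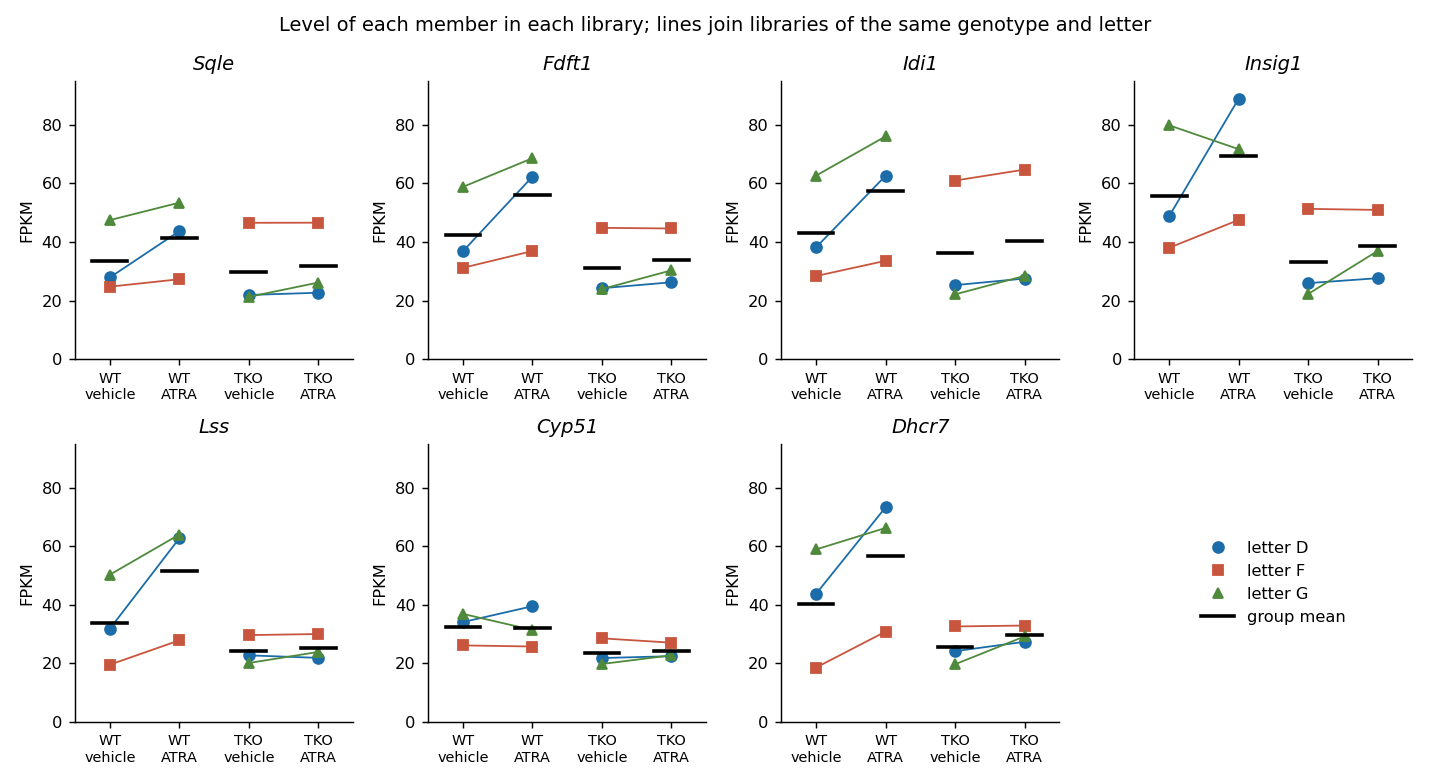
Level of each of the 7 members in FPKM (vertical axis) in the 12 libraries, by group; symbols and colours give the letter, lines join the libraries of the same genotype and letter, and black bars are group means (n = 3). The F libraries are lowest in WT and highest in TKO in every panel, whichever the treatment.

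The letter a library carried went with its level more than the treatment did. WT library F was the lowest of its group for all 7 members under both treatments, and TKO library F the highest for all 7. G was the highest of WT vehicle for all 7 members, and in WT with ATRA D was highest for 3 and G for 4. In TKO cells G was the lowest for all 7 with vehicle and D with ATRA. The geometric mean over the 7 members was 36.8, 25.9 and 55.0 FPKM in the WT vehicle libraries D, F and G, and 23.6, 40.5 and 21.2 FPKM in those of TKO vehicle. Within a group the highest library exceeded the lowest by a median of 2.101-fold in WT vehicle, 1.96-fold in WT with ATRA, 1.88-fold in TKO vehicle and 1.70-fold in TKO with ATRA.

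As a description, the letter within genotype held 40.2% (Insig1) to 80.9% (Sqle) of the sum of squares of a member's log2(FPKM + 1), with a median of 53.1%. The same share had a median of 33.8% over all tested genes, and 43.3% of those genes had at least the share of the lowest member. Treatment within genotype held a median of 6.78% for the members and 9.99% for all genes, and genotype 33.5% and 36.6%. The shares are not divided by degrees of freedom, of which the letter has more than treatment or genotype. Marker sums also differed by letter, but not all in the same way. The pluripotency sum in WT D, F and G was 7612, 8349 and 7062 FPKM with vehicle and 4952, 5504 and 4474 with ATRA. F, where the members were lowest, was thus highest. In TKO cells D was highest, at 6833, 6401 and 6388 FPKM, then 6574, 6335 and 6232. The primitive endoderm sum kept no order of letters in WT, at 47.2, 47.6 and 40.1 FPKM with vehicle and 57.5, 55.3 and 63.5 with ATRA. The summed level of 7 trophoblast markers was 83.6, 124.9 and 46.0 FPKM in the D, F and G libraries of TKO vehicle, and 83.8, 125.0 and 44.4 with ATRA. In WT cells that sum was 34.7, 47.9 and 32.7 FPKM with vehicle and 35.0, 46.6 and 36.8 with ATRA, so F was highest in both genotypes while the members were highest there only in TKO. Different genes made up the range of that sum. In WT vehicle Tfap2c ran from 15.6 to 29.1 FPKM and Krt8 only from 9.51 to 10.96, whereas in TKO vehicle Krt8 ran from 13.2 to 49.8, Krt18 from 14.2 to 47.2 and Hand1 from 4.26 to 19.6 FPKM. The sum therefore does not show 1 cell type moving in both genotypes. The part of these cells in the members' levels was not tested. In bulk RNA, fewer cells of a type and less RNA per cell cannot be told apart.

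**Figure D2:**
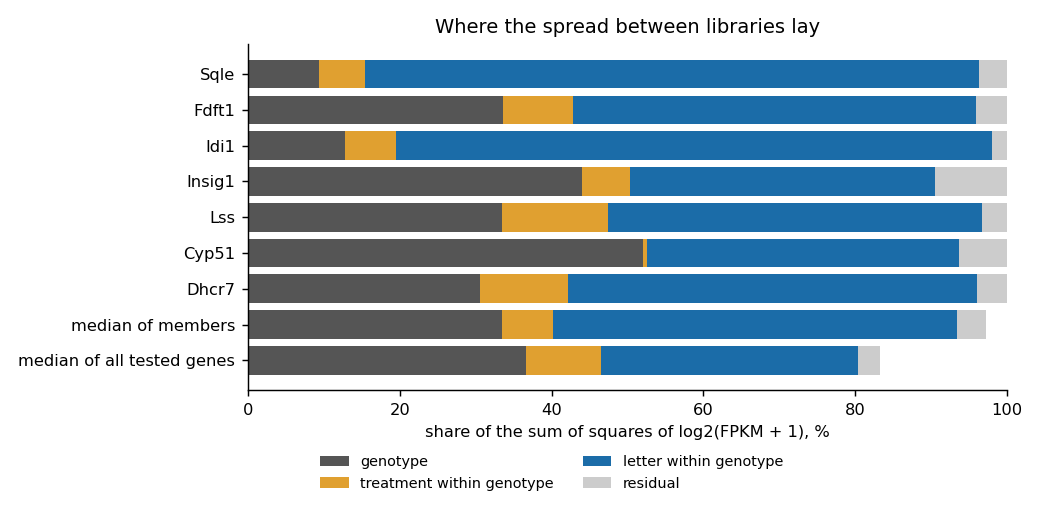
Share (%) of the sum of squares of log2(FPKM + 1) over 12 libraries taken by genotype, treatment within genotype, letter within genotype and the residual, for each member, with the medians of the members and of all 12362 tested genes (medians are taken per part, so those bars need not fill the axis). The blue part, the letter, is the largest for every member but Insig1 and Cyp51. It also has more degrees of freedom than genotype or treatment, so the sizes of the parts are not on an equal footing.

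The members moved together across libraries. Over the 12 libraries, the 21 pairs of members correlated at r = 0.736 to 0.990 on the log2(FPKM + 1) scale, with a median of 0.892. With the group means taken out, r was 0.743 to 0.991, with a median of 0.868. These values are descriptions: the points share the library, its scaling and the groups.

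Outside the members, 9 genes with the most similar pattern are named here. Likeness was Pearson's r over the 12 libraries with the mean of the members' standardised levels, among 8451 tested genes with a mean of at least 5 FPKM, of which 0.935% passed 0.9. Mvd, the decarboxylase that makes the first isoprenoid diphosphate, had r = 0.984. Acat2, the thiolase that starts the pathway, had r = 0.972, and Aacs, which activates acetoacetate for lipid synthesis, 0.962. Srebf2, which encodes the SREBP best known for sterol genes, had r = 0.962. The remaining ones were Asun at 0.975, Ttll12 at 0.971, Fbxo31 at 0.963, Sec61a1, a subunit of the protein channel of the endoplasmic reticulum, at 0.960, and Def6 at 0.957. Not every gene of the pathway was so close: Ebp had r = 0.660, Tm7sf2 0.508 and Hsd17b7 0.359. Erlin1, a partner in sterol-driven protein turnover, had r = −0.851 and Insig2, the second INSIG gene, −0.489.

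**Figure D3:**
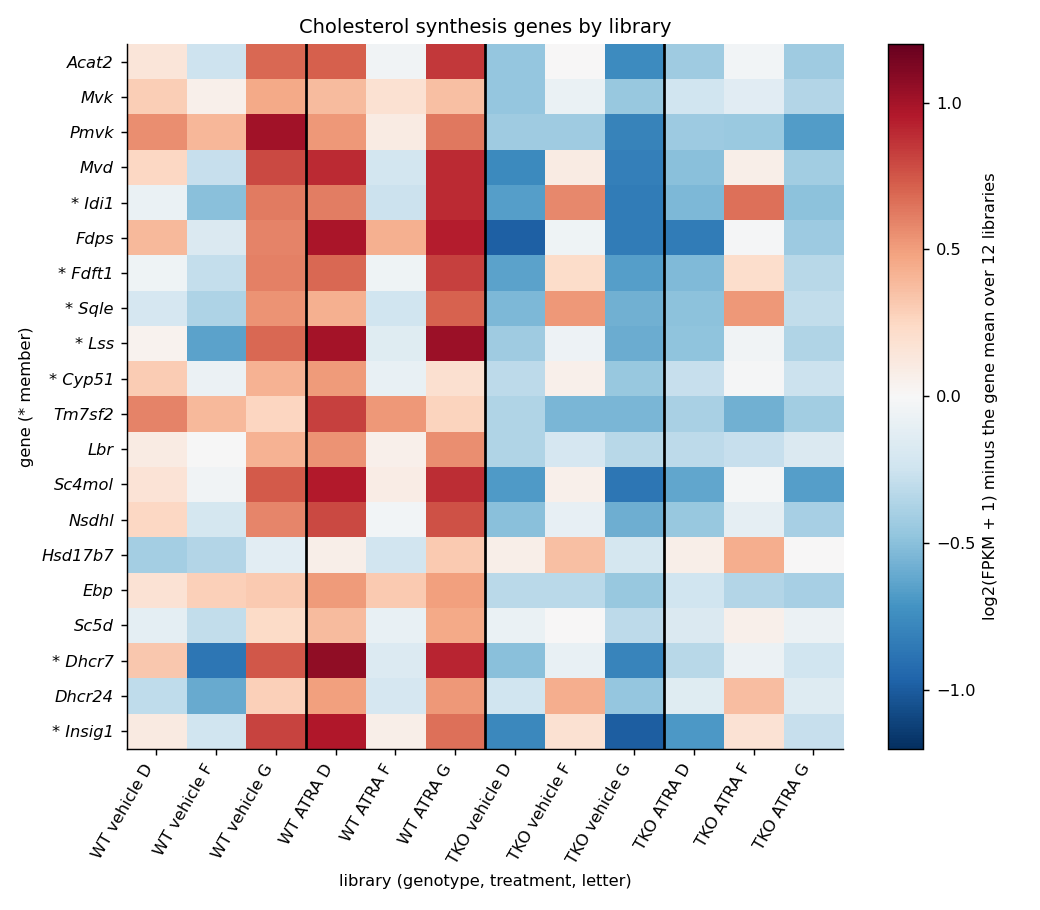
Levels of 20 cholesterol synthesis genes (rows; members are starred) in the 12 libraries (columns), as log2(FPKM + 1) minus the mean of the gene over all libraries. Red is above and blue below that mean. Most rows are red in the D and G libraries of WT with ATRA and blue in the D and G libraries of TKO, whereas Hsd17b7 is highest in a TKO library.

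ATRA against vehicle in WT cells asks how these genes respond where the receptors are present. None of the 7 members passed limma's test on all 12 libraries at an adjusted p under 0.05, and 0 had an unadjusted p under 0.05. In the same test 16.7% of all tested genes were called. The estimates were higher with ATRA for 6 of 7 members, and their median log2 difference was 0.40, against 0.05 over all tested genes. Lss had the largest estimate, 0.60 ± 0.35 (SE, n = 3 against 3; adjusted p = 0.292). These standard errors contain the spread between letters shown above.

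Libraries of the same genotype and letter deviated together from their group means over all genes (r = 0.376 to 0.864 in 6 pairs), so the comparison was also made within letters. In a fit that blocked on the letter inside each genotype, 5 of 7 members rose with ATRA in WT cells, against 33.7% of all tested genes called higher in that fit. Lss rose by 0.60 ± 0.11 on the log2 scale (1.51-fold, adjusted p = 0.00209), and its FPKM was higher with ATRA in 3 of 3 letters, by 1.97-fold, 1.43-fold and 1.27-fold in D, F and G. Idi1 rose by 0.40 ± 0.09 (adjusted p = 0.00463) and Fdft1 by 0.40 ± 0.11 (adjusted p = 0.0125). Dhcr7 rose by 0.53 ± 0.13 (adjusted p = 0.0132) and Sqle by 0.31 ± 0.10 (adjusted p = 0.0231). Each of these 5 genes was higher with ATRA in all 3 letters.

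Insig1 and Cyp51 were not called in that fit. Insig1 was 1.82-fold and 1.25-fold higher with ATRA in D and F and 0.898-fold in G, with an estimate of 0.34 ± 0.24 (adjusted p = 0.285). Its interval, −0.28 to 0.96, holds both no change and the rises of the other members. Cyp51 was 1.16-fold, 0.985-fold and 0.851-fold in D, F and G, and its estimate was −0.01 ± 0.08 (adjusted p = 0.899, 95% interval −0.19 to 0.16). The rises were not of 1 size across letters. The median ratio of ATRA to vehicle over the 7 members was 1.68 in WT D, where all 7 were higher, 1.18 in F, where 6 were, and 1.13 in G, where 5 were.

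The 5 calls of the blocked comparison rested partly on scaling and on letter D. After median-of-ratios scaling 3 members were called (Dhcr7, Idi1 and Lss), and without the WT D pair also 3 (Fdft1, Idi1 and Lss). Without the WT F pair Dhcr7 was not called (4 members). The summed pluripotency markers given above fell with ATRA in WT cells in the same libraries, with a median log2 difference of −0.91. Without a block limma called 8 of 8 lower, against 5.14% of all tested genes. With the letter block it also called 8, against 22%. The summed level of 8 primitive endoderm markers went the other way, from 40.1 to 47.6 FPKM with vehicle to 55.3 to 63.5 with ATRA, and stood at 52.7 to 67.4 and 54.2 to 70.6 in the TKO groups. Not the whole list rose. In WT cells Lama1, its most abundant gene, fell from 35.1 ± 1.57 to 28.9 ± 1.09 FPKM. Gata6 went from 1.08 ± 0.413 to 11.9 ± 3.68 and Sox7 from 2.31 ± 0.38 to 7.68 ± 1.44. Of 7 tested, 2 were called higher and 0 lower without a block (11.6% and 5.14% of all tested genes). The letter block called 5 of them higher and 1 lower (33.7% and 22%). The part of either cell type in the members' change was not tested.

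**Figure D4:**
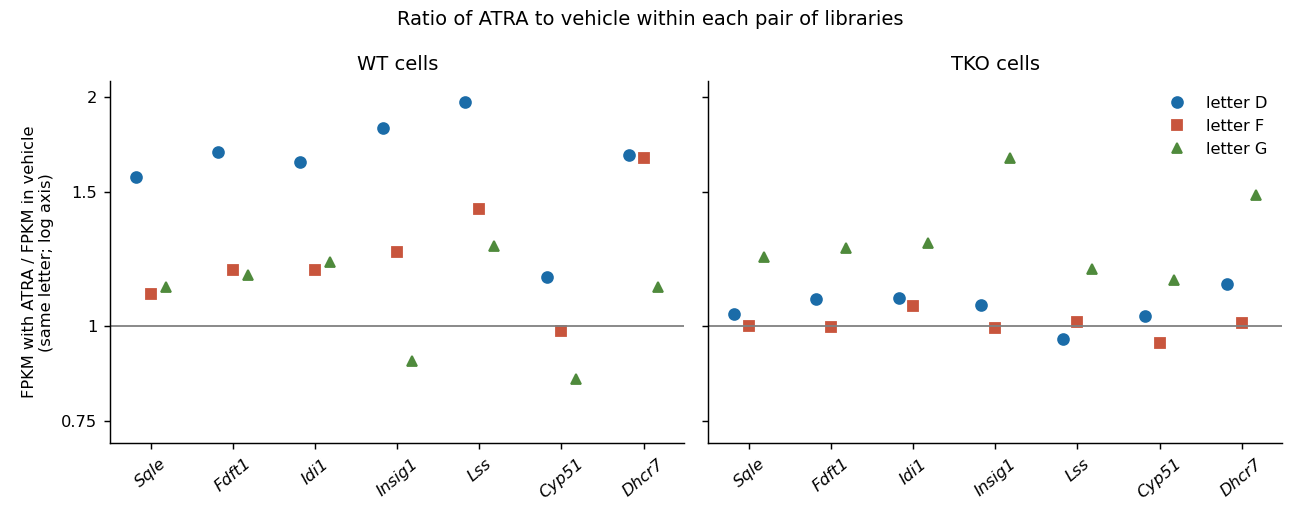
Ratio of FPKM with ATRA to FPKM with vehicle for libraries of the same genotype and letter (log axis), for each member, in WT (left) and TKO (right) cells; the line marks a ratio of 1. In WT, D libraries lie between 1.16 and 1.97, whereas TKO F libraries lie between 0.948 and 1.06.

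ATRA against vehicle in TKO cells asks whether the genes respond without these receptors. No member was called by limma without a block, with 0 at an unadjusted p under 0.05, and 0% of all tested genes were called. The blocked fit also called 0 of 7 members, 0 of them at an unadjusted p under 0.05, and again 0% of all tested genes. All 7 estimates were above 0, with a median of 0.15 (all tested genes −0.0029). The largest were Insig1 at 0.26 ± 0.24 and Dhcr7 at 0.24 ± 0.13 in the blocked fit, and the smallest Cyp51 at 0.05 ± 0.08. For Lss the 95% interval in that fit ran from −0.18 to 0.32, and for Idi1 from −0.02 to 0.39. The values differed by letter: the median ratio over the members was 1.07 in D, 1.00 in F and 1.27 in G, and all 7 members were higher with ATRA in G.

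Whether the ATRA effects differed between genotypes was tested directly. Without a block 0 of 7 members were called by limma, 0 with an unadjusted p under 0.05, while 5.43% of all tested genes were. With the letter block 1 member was called, against 39% of all tested genes. For Lss the effect in TKO was lower than that in WT by a log2 difference of −0.53 ± 0.15 (adjusted p = 0.0275), with ratios of 0.962, 1.01 and 1.19 in TKO D, F and G against the 3 WT ratios given above. That call was lost after median-of-ratios scaling and without the WT F, TKO D or TKO F pair, and the adjusted p ran from 0.00816 to 0.0953 with each pair left out. Without the WT G pair Dhcr7 was called as well. For the other members the difference was not called. The blocked estimates for Idi1, Fdft1, Sqle and Dhcr7 ran from −0.20 to −0.29, so that rises called in WT and not in TKO are not shown to differ between the genotypes for these 4 genes. Insig1 had a blocked difference of −0.08 ± 0.34 and Cyp51 of 0.07 ± 0.11. The difference for Insig1 changed sign under median-of-ratios scaling.

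**Figure D5:**
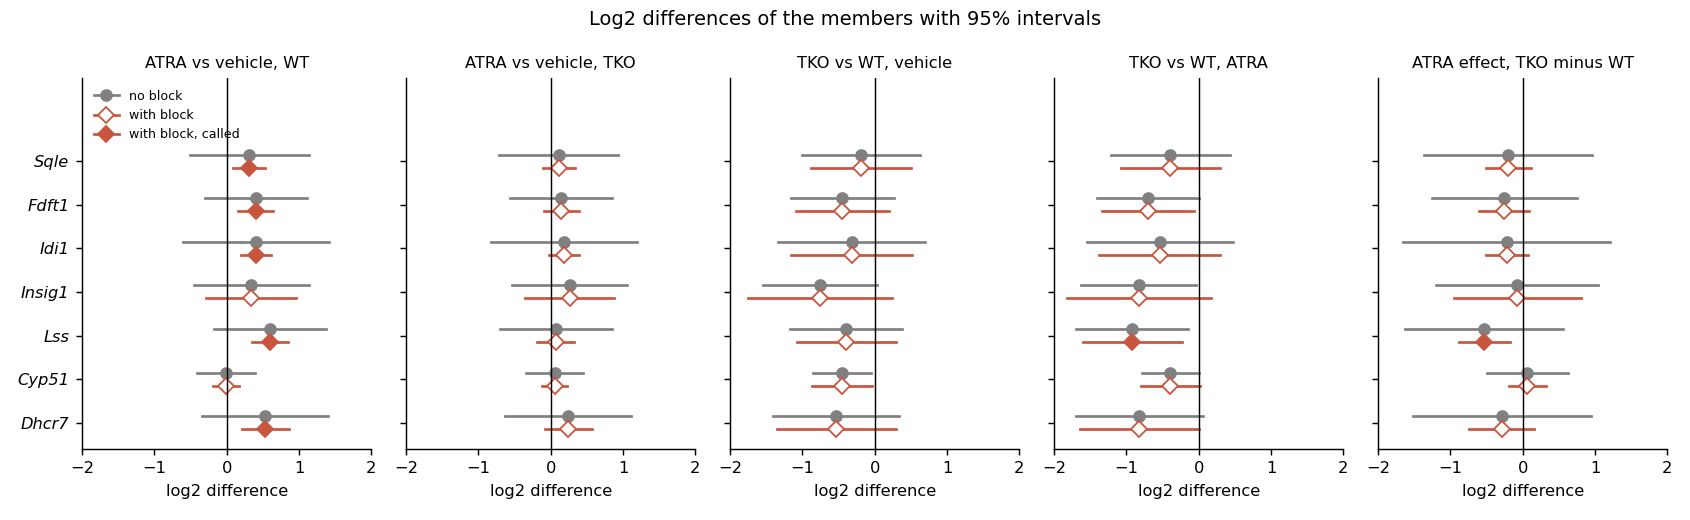
Log2 differences of the members with 95% intervals in the 5 comparisons, on the log2(FPKM + 1) scale. Grey circles are the fit without a block, orange diamonds the fit with the letter as a block, filled where called; TKO against WT uses genotype and letter as a random block. Intervals shrink most in the first, second and last panel, where libraries are compared within letters.

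TKO against WT in vehicle shows the genotypes before any ATRA. All 7 estimates were lower in TKO, with a median of −0.45, against −0.02 over all tested genes, and 0 of 7 were called, while limma called 24.6% of all tested genes (12.8% of all tested genes lower and 11.8% higher). At an unadjusted p under 0.05 there was 1 member, Cyp51, at −0.46 ± 0.18 (adjusted p = 0.0895). Insig1 had the largest difference, −0.75 ± 0.36 (adjusted p = 0.151), and Sqle the smallest, −0.19 ± 0.37 (adjusted p = 0.745). Without TKO vehicle library F, in which all 7 members were highest, Insig1 (−1.11, adjusted p = 0.0435) and Cyp51 (−0.60, adjusted p = 0.0434) were called. Leaving out that library could only move the members' estimates further down. In that fit 2344 genes were called in either direction, 53.7% of them higher, against 3046 with every library kept. For Sqle the sign turned without WT vehicle library G, to 0.09.

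With ATRA in both genotypes, all 7 estimates were again lower in TKO, with a median of −0.70 against −0.07 over all tested genes. These comparisons share libraries with those above, so they are given side by side. None of the 7 members was called by limma without a block and 2 (Insig1 and Lss) had an unadjusted p under 0.05, while 42.1% of all tested genes were called (25.7% of all tested genes lower and 16.4% higher). The estimates ran from −0.39 (Sqle and Cyp51) to −0.92 (Lss). With genotype and letter as a block through duplicateCorrelation, 1 member was lower in TKO, Lss at −0.92 ± 0.32 (adjusted p = 0.0348), against 24.5% of all genes called lower. Without WT library F with ATRA, the lowest of the 3 WT libraries with ATRA, 4 members were called lower: Lss, Dhcr7, Fdft1 and Cyp51. All 7 members were lowest in that library, so leaving it out could only move their estimates further down. In that fit 4496 genes were called in either direction, 40.5% of them higher, against 5201 with every library kept. Without WT vehicle library F 2 members were called lower (Lss and Dhcr7), and 1 each without WT vehicle G (Lss) and TKO vehicle F (Insig1). Median-of-ratios scaling moved the median of all genes by 0.101 in this comparison, from −0.07 to 0.03. Relative to that median, the members' median was −0.63 as deposited and −0.62 after it.

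The scale of the values also bears on the genome-wide counts. In WT cells 69.2% of the genes called with ATRA were higher as deposited, but 50.7% after median-of-ratios scaling and 55.2% after quantile normalization. For TKO against WT with ATRA the share higher was 38.9%, 51.8% and 49.4% in that order, and for the difference of effects 27.1%, 40.8% and 40.4%.

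The other 13 enzymes of cholesterol synthesis that were listed, all tested, mostly had estimates of the same sign as the members: 12 were higher with ATRA in WT cells. With ATRA in WT cells, 0 of 13 were called without a block and 0 had an unadjusted p under 0.05. The block called 8 higher and 1 lower, with a median of 0.30, against 33.7% of all tested genes called higher and 22% lower. The one called lower was Pmvk, the kinase that acts second on mevalonate, at −0.24 (adjusted p = 0.00767). In TKO cells 0 were called with either fit, where 0 and 1 had an unadjusted p under 0.05. In vehicle, 6 of 13 were lower in TKO than in WT and 0 higher, with a median of −0.61, against 12.8% of all tested genes called lower. With genotype and letter as a block through duplicateCorrelation 5 of 13 were lower, against 11.8% of all tested genes, and Lbr lost its call (adjusted p = 0.0551).

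Pmvk read 80.5, 71.8 and 110.4 FPKM in WT vehicle D, F and G against 40.1, 40.02 and 30.7 in TKO. Its groups did not overlap, and it was lower in TKO by a log2 difference of −1.21 ± 0.18 (adjusted p = 0.00095). Ebp, the sterol isomerase, was at 28.9 ± 1.57 against 18.4 ± 0.978 FPKM (−0.62 ± 0.09, adjusted p = 0.000641). Tm7sf2, a sterol reductase, was at 21.4 ± 2.66 against 10.97 ± 0.919 FPKM (−0.90 ± 0.14, adjusted p = 0.00114). These 3 genes kept their calls with each of the 12 libraries left out. In WT vehicle Pmvk had the members' order of letters, F lowest and G highest, whereas Ebp was lowest in D and Tm7sf2 in G. In TKO cells F was the highest library of its group for none of these 3 genes. However, D and F were nearly equal for Pmvk (40.07 and 40.02 FPKM with vehicle, 39.77 and 39.63 with ATRA). The same held for Ebp with vehicle (18.99 and 18.98 FPKM). With ATRA, 9 of 13 were lower in TKO and 0 higher, with a median of −0.80, against 25.7% of all tested genes called lower, and Ebp, Tm7sf2 and Pmvk again had the smallest adjusted p (−0.77, −0.999 and −0.93).

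Of 11 genes that control SREBP, 1 rose with ATRA in WT cells without a block, and 7 with it, with a median of 0.19. Of all tested genes 11.6% were called higher without and 33.7% with the block, so the count without it was near the background. Mbtps1, the Golgi protease that makes the first cut in SREBP, went from 58.3 ± 4.47 to 78.5 ± 1.98 FPKM in WT (0.42 ± 0.07, adjusted p = 0.00211), and from 47.8 ± 1.25 to 48.6 ± 0.97 in TKO. The count without a block was 2 when WT vehicle G, WT with ATRA F or TKO vehicle F was left out. Srebf2 went from 73.4 ± 14.9 to 92.8 ± 14.4 FPKM in WT, called only with the block (0.34, adjusted p = 0.000245). In vehicle, 1 of 11 was lower in TKO, Mbtps1, at −0.28 ± 0.07 (adjusted p = 0.0158), a call lost without library D of WT vehicle or of TKO vehicle. With genotype and letter as a block 2 were lower, Mbtps1 and Mbtps2 (−0.41, adjusted p = 0.0485). The backgrounds were 12.8% and 11.8% of all tested genes. With ATRA, 6 of 11 were lower in TKO, 0 higher, against 25.7% of all tested genes. Among them were Mbtps1 (−0.68 ± 0.07, adjusted p = 2.85e-05), the ubiquitin ligase Rnf139 (−0.32, adjusted p = 0.0194) and the second protease Mbtps2 (−0.52, adjusted p = 0.022). The last count rested on single libraries: it was 2 without library D and 3 without library F of either group, and Rnf139 or Mbtps2 lost its call there.

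Fatty acid genes and other SREBP targets were also listed. Of 13, limma called 4 higher with ATRA in WT cells without a block and 10 with it, with a median of 0.53 (11.6% and 33.7% of all tested genes), and 0 in TKO with either fit (0 and 2 at an unadjusted p under 0.05). Scd1, a desaturase, went from 50.2 ± 12.3 to 114.6 ± 37.3 FPKM in WT (1.15 ± 0.25, adjusted p = 0.00842). In TKO cells it was at 40.3 ± 7.21 and 46.2 ± 2.49 FPKM. Elovl6, which lengthens fatty acids, rose by 0.70 ± 0.15 (adjusted p = 0.00788) and the desaturase Fads2 by 0.87 ± 0.22 (adjusted p = 0.019). The count was 2 without WT vehicle library F or WT library D with ATRA, and Fads2 then lost its call.

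In vehicle 2 of these 13 were lower in TKO and 1 higher, with a median of 0.03, near the background of 12.8% and 11.8% of all tested genes. Acss2, which makes acetyl-CoA from acetate, was at 17.7 ± 0.763 FPKM in WT and 6.18 ± 1.15 in TKO (−1.39 ± 0.15, adjusted p = 0.000174). The desaturase Fads1 was lower in TKO by a log2 difference of −0.60 ± 0.15 (adjusted p = 0.0163). The gene called higher was Elovl6, at 0.46 ± 0.15 (adjusted p = 0.0413), a call kept in 4 of 12 fits that each left out 1 library. Without WT vehicle D or TKO vehicle F, where Fads1 also lost its call, 1 of the 13 was called. With ATRA 5 were lower in TKO and 0 higher, with a median of −0.32, against 25.7% of all tested genes called lower, including Acss2 (−1.69, adjusted p = 1.08e-05), Fads1 (−1.11, adjusted p = 0.0002) and Scd1 (−1.24, adjusted p = 0.00204).

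The genotypes' ATRA effects were also compared over these lists. Of the 13 other enzymes 0 were called without a block (0 at an unadjusted p under 0.05), and the block called 1 lower in TKO, Fdps, and 1 higher, Pmvk. Of the 11 SREBP control genes 1 was lower in TKO without a block and 7 with it. Among the 13 fatty acid genes and other targets, 0 were called without a block (4 at an unadjusted p under 0.05) and 8 were lower in TKO with it. The shares of all tested genes called in either direction in these fits are given above (5.43% and 39%). By direction, 3.96% were lower in TKO and 1.47% higher without a block. With it 24.8% were lower and 14.2% higher.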

How the data were processed

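The deposited table holds 1 FPKM value per gene and library. Its header gives no unit, and FPKM was read from the range of the values and from Cufflinks, which the submitters' processing notes list beside STAR and GRCm38, none with a version or role. Per the labels' protocols, libraries were made with a TruSeq RNA kit and read single-end on a HiSeq4000. The depth per library is unknown, which leaves no way to give counting intervals or run a count test.

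Of 23686 rows, 18 exact repeats were removed. Columns carry letters where the sample titles number replicates, so columns were assigned to groups only. limma 3.58.1 in R 4.3.3 fitted log2(FPKM + 1) with group means (12 libraries, leaving 8 residual degrees of freedom, or 4 with the letter block), with trend and robust moderation and Benjamini-Hochberg adjustment over all 12362 tested genes at 0.05. The added 1 shrinks the fold changes of low genes. All intervals are 95%.

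To see if letters pair libraries, deviations from the group means were correlated over genes. Pairs sharing genotype and letter had r = 0.376 to 0.864, pairs sharing only the genotype −0.73 to 0.315, and pairs sharing only the letter −0.515 to 0.287. Pairs sharing neither had −0.405 to 0.6, which reaches above the 0.376 of the WT D pair. Letters were taken to pair libraries inside a genotype; this comes from the data, as no label states it. Blocked values stand beside each member's result whose call they change.

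The rule for named genes was the members, up to 3 called genes of each list and comparison with the smallest adjusted p, and the genes most like the members. Msmo1 is in the table as Sc4mol, found through RefSeq synonyms. The members and lists were chosen with earlier results of these data known. Alternatives were the pseudocount 0.1, no filter, median-of-ratios scaling, quantile normalization, each library left out and the blocks. The table's own gene positions are not those of GRCm38 and were not used. A result that the rule names is not reported here.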

Additional observations from a re-analysis of the deposited data

Results flagged for a closer look

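For Mbtps1, the protease that makes the first cut in SREBP, the effect of ATRA in TKO minus that in WT was −0.40 ± 0.10 on the log2 scale (limma without a block, adjusted p = 0.0439), a difference between genotypes in a tested term. Its level rose in WT and not in TKO, as given above, and the sign held in each of the 12 fits that left out 1 library, but the call was kept in 1 of them, and it was lost after median-of-ratios scaling (adjusted p up to 0.216 over the other settings of the values). With the letter block its adjusted p was 0.000521.

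For Lss, lanosterol synthase, the same difference was −0.53 in the fit with the letter block (adjusted p = 0.0275), and was not called without the block (adjusted p = 0.68). Its estimate ran from −0.66 to −0.35 in the blocked fit with each pair of libraries left out, and 3 of those 6 fits called it.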

How the results depend on the processing

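The number of members called depended first on the replicate block. For ATRA against vehicle in WT it was 0 without a block and 5 with the letter as a replicate block, whether in all libraries or in WT libraries only. For the difference of effects it went from 0 to 1, and for TKO against WT with ATRA from 0 to 1 with duplicateCorrelation; a block shared by the genotypes called 0. For ATRA in TKO it was 0 in all 18 alternatives, blocked fits included, and in all 10 alternatives run on the blocked fit. Added after seeing the data, median-of-ratios scaling in the blocked fit gave 3 members for ATRA in WT and 0 for the difference. With each library left out, counts ran from 0 to 2 for TKO against WT in vehicle and from 0 to 4 with ATRA. With each pair left out of the blocked fit they ran from 3 to 5 for ATRA in WT and from 0 to 2 for the difference.

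Some estimates that were not called changed sign with 1 library left out. For ATRA in TKO the log2 difference ran from −0.19 to 0.47 for Sqle, −0.069 to 0.44 for Fdft1, −0.21 to 0.63 for Idi1, −0.059 to 0.22 for Lss and −0.055 to 0.20 for Cyp51. For ATRA in WT it ran from −0.17 to 0.13 for Cyp51, and for TKO against WT in vehicle from −0.55 to 0.086 for Sqle. For the difference of effects it ran from −0.50 to 0.16 for Sqle, −0.52 to 0.036 for Fdft1, −0.61 to 0.22 for Idi1, −0.37 to 0.28 for Insig1, −0.081 to 0.22 for Cyp51 and −0.67 to 0.18 for Dhcr7; for Insig1 it was 0.023 after median-of-ratios scaling. The cause was not tested. No member changed sign under another pseudocount, filter or quantile normalization. The unknown depth limits what low fold changes can be read from 3 libraries a group.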

Other observations

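Genes that take sterol up, store it or pass it on did not move as 1 group. Of 13, limma called 2 higher with ATRA in WT cells and 0 lower, with a median log2 difference of 0.01. That is near the 11.6% of all tested genes called higher. Lipa, the lysosomal lipase that frees cholesterol from its esters, went from 6.21 ± 1.45 to 10.95 ± 2.0 FPKM (0.74 ± 0.19, adjusted p = 0.021), and Scarb1, a receptor for high density lipoprotein, from 35.7 ± 1.28 to 43.2 ± 3.65 (0.27 ± 0.08, adjusted p = 0.0439). Both calls depended on single libraries: 9 and 3 of 12 fits with 1 library left out kept them, and Scarb1 was also lost after median-of-ratios scaling. With the letter block 4 were higher and 2 lower (33.7% and 22% of all tested genes). In vehicle 3 of 13 were lower in TKO and 1 higher (12.8% and 11.8% of all tested genes). Scarb1 was lower by −0.58 ± 0.08 (adjusted p = 0.000673), in every fit with a library left out. The acyltransferase Lpcat3 was at 89.4 ± 14.2 FPKM in WT and 37.6 ± 17.0 in TKO (−1.32, adjusted p = 0.02), and the cholesterol exporter Abca1 was lower by −0.90 (adjusted p = 0.0239); each kept its call in 8 of 12 such fits. With ATRA 3 of 13 were lower in TKO, near the 25.7% of all tested genes: Scarb1 (−0.84, adjusted p = 1.44e-05), Lpcat3 (−1.49, adjusted p = 0.006) and the receptor Lrp8 (−0.67, adjusted p = 0.0293), the last kept in 7 of 12.

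The branches that leave the pathway for other isoprenoids gave 1 gene higher and 1 lower of 12 with ATRA in WT cells, with a median of 0.03 (11.6% and 5.14% of all tested genes). The letter block called 2 higher and 1 lower, against 33.7% and 22% of all tested genes. Fntb, the beta subunit of farnesyltransferase, fell from 31.4 ± 1.37 to 23.4 ± 1.39 FPKM in WT (−0.41 ± 0.08, adjusted p = 0.00409) and stood at 41.8 ± 2.51 and 41.8 ± 1.31 FPKM in TKO. Zmpste24, a protease of prenylated proteins, rose by 0.27 ± 0.08 (adjusted p = 0.0368), a call kept in 5 of 12 fits with a library left out and lost after either scaling. In vehicle 2 of 12 were higher in TKO, Fntb (0.40, adjusted p = 0.00394) and Zmpste24 (0.43, adjusted p = 0.00331). There were 2 lower, Pdss2, which builds the tail of ubiquinone (−0.68 ± 0.10, adjusted p = 0.000842), and Dhdds, which makes dolichol precursors (−0.34, adjusted p = 0.0247). Of all tested genes 11.8% were called higher and 12.8% lower there. With genotype and letter as a block 1 was lower, against 11.8% of all tested genes, and Dhdds lost its call (adjusted p = 0.0733). With ATRA 1 of 12 was higher in TKO, Fntb (0.81, adjusted p = 1.37e-05), and 3 were lower, among them Pdss2 (−0.66, adjusted p = 0.000344) and Dhdds (−0.48, adjusted p = 0.00214). The shares of all tested genes were 16.4% higher and 25.7% lower, so the count of lower genes was near the background. In TKO cells ATRA changed 0 genes of either list by limma, with 0 at an unadjusted p under 0.05 without a block, and 2 and 0 with it.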
